A study of Mus musculus with 12 samples.

Results

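The cadherins and protocadherins are taken here as the genes whose symbols begin with Cdh followed by a digit, or with Pcdh, and that had at least 1 probe set naming no other gene. There were 57 of them, with 61 such probe sets, among the 19937 genes that had one. Each gene is given by its probe set with the highest mean over the 12 arrays. They fell into 5 classical type I cadherins, 13 classical type II cadherins, 5 other cadherins, 22 clustered protocadherins, 4 delta-1 and 5 delta-2 protocadherins and 3 other protocadherins. All 22 clustered genes were of the Pcdhb cluster, since no probe set in the table used here carried a single Pcdha symbol or any Pcdhg symbol.

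Cells carrying GFP from the RCE:LoxP reporter were sorted from the cortex of C57BL6 mice. Interneurons came from Nkx2-1Cre;RCE:LoxP cortices at postnatal day 0 (IN P0) and postnatal day 10 (IN P10), and pyramidal cells, sorted at postnatal day 0 (Pyr P0) and postnatal day 12 (Pyr P12), from the somatosensory cortex of NexCre;RCE:LoxP mice. Each of the 4 groups had 3 arrays, which the labels give as biological replicates A to C, and the number of animals behind an array is not given in the labels. Both drivers limit what was sorted. Nkx2-1 marks progenitors of the medial ganglionic eminence, which give rise to a share of the cortical interneurons and also to some oligodendrocyte precursors, and Nex (Neurod6) marks young excitatory neurons. IN P10 and Pyr P12 differ in age and in the cortical area named as well as in population, and these cannot be told apart in that comparison. The cortical area named differs between IN P0 and Pyr P0 too, so area and population cannot be told apart at P0 either.

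Cadherins are calcium-dependent adhesion proteins that bind like partners on neighbouring cells. Classical cadherins pass the contact to the actin cytoskeleton through catenins, and the type II members are known for patchy expression that marks layers, areas and matching synaptic partners. Protocadherins lack the catenin-binding tail. The clustered ones give single neurons a combinatorial surface identity used in self-avoidance, and the delta ones act in cell sorting, axon growth and synapse formation.

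Values are RMA signals on the log2 scale, on which a difference of 1 is a 2-fold change, and levels of different genes are not compared because probe sets differ in their response. A gene was called higher or lower where it differed more than 2-fold with an adjusted p in limma below 0.05. Background was set on each array at the percentile 95 of odorant and pheromone receptor genes, which gave 7.13 to 7.45. Of the 57 genes, 51 were above it on all 3 arrays of at least 1 group. Cdh3, Cdh17, Cdh19, Cdh26 and Pcdhb1 were above it on no array, and Cdh5, the cadherin of endothelial cells, only on 1 array of Pyr P0.

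The sorted populations carried the markers of their labels, with 7 of 7 pan-interneuron genes higher in interneurons at both ages and 7 of 9 (older pair) or 6 of 9 (P0) pyramidal genes lower. Markers of oligodendrocyte precursors moved with the population as well, 7 of 7 being higher in interneurons at both ages. Their summed level on the log2 scale was 10.48 to 10.80 in Pyr P0, 10.50 to 10.69 in Pyr P12, 13.13 to 13.45 in IN P0 and 12.78 to 13.54 in IN P10. The defining precursor gene Pdgfra averaged 7.76 in Pyr P0 and 11.91 in IN P0. Myelin genes reached 11.36 to 11.48 in IN P0 and 12.58 to 13.01 in IN P10, with 4 of 8 higher in interneurons in the older pair and 2 of 8 at P0. Of 4 Cajal-Retzius markers 2 were higher in interneurons in the older pair and 1 at P0, and of 6 radial glia markers 1 at each age. Of 8 astrocyte markers 1 was lower in interneurons in the older pair, with summed levels of 13.03 to 13.08 in Pyr P12 and 11.31 to 11.62 in IN P10. Of 5 immature neuron markers 1 was lower in interneurons at P0. The part of these other marker differences in the population differences below was not tested. In sorted bulk samples, fewer cells that express a gene and less RNA per cell cannot be told apart.

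Of the 13 type II cadherins, 5 lie in 1 run on mouse chromosome 15 in the RefSeq gene order, Cdh6, Cdh9, Cdh10 and Cdh12 with no other protein-coding gene between them and Cdh18 after 1 such gene, Acot10. Because these neighbours took different courses in the 4 groups, the sequence around each start is shown, from 250 bases before to 50 bases after it, as given by RefSeq on GRCm38.p6. The windows are chr15:13173626-13173925 on the minus strand (Cdh6) and, on the plus strand, chr15:16728665-16728964 (Cdh9), chr15:18820079-18820378 (Cdh10), chr15:21111202-21111501 (Cdh12) and chr15:23036213-23036512 (Cdh18). Each runs 5′ to 3′ along its gene, with the E-box letters CANNTG, a core motif of basic helix-loop-helix factors that reads the same on both strands, in capitals.
Cdh6: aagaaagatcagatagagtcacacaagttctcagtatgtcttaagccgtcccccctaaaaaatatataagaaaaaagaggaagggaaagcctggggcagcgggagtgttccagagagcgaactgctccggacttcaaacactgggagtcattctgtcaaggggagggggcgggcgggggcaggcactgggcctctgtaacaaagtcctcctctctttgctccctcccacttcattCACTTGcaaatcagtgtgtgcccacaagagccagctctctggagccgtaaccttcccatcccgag
Cdh9: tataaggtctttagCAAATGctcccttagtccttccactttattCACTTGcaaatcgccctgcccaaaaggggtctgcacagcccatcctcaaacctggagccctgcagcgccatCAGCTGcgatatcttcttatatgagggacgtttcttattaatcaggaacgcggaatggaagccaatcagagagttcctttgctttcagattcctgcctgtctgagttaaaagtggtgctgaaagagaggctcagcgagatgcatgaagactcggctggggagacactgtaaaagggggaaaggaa
Cdh10: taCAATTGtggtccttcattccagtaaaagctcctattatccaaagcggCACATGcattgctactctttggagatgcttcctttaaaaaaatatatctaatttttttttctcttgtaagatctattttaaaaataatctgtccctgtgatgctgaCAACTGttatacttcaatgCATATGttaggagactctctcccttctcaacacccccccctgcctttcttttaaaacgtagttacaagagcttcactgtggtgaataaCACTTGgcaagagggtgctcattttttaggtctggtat
Cdh12: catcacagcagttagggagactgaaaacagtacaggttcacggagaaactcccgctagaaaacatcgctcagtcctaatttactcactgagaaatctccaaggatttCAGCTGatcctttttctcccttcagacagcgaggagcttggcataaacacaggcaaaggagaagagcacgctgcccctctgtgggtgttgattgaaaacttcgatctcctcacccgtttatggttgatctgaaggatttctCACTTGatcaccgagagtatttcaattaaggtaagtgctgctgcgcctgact
Cdh18: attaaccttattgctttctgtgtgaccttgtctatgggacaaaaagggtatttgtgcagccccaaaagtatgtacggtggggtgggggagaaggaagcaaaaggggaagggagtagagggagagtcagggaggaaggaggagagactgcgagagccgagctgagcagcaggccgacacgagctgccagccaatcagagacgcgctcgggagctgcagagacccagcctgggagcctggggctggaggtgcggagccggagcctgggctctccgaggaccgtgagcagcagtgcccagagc

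The letters CANNTG occurred 5 times in the Cdh10 window, 3 times in that of Cdh9, 2 times in that of Cdh12, 1 time in that of Cdh6 and 0 times in that of Cdh18. They were common in general, with 72.3% of all 32851 RefSeq windows of this length holding at least 1. The Cdh6 and Cdh9 windows shared a run of 15 bases around 1 of them, printed above as attCACTTGcaaatc, and no other of the 32851 windows held that run on either strand. Among the other 9 pairs of the 5 windows, the longest shared run was 8 to 13 bases. CpG pairs numbered 12 in the Cdh18 window, 9 in that of Cdh12, 8 in those of Cdh6 and Cdh9 and 2 in that of Cdh10, against a median of 7 over all windows. These matches describe letters and were not tested as binding sites.

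Counted over all 57 genes, 4 were higher and 0 lower in IN P10 against IN P0, or 7.02% and 0%, against 4.19% and 2.85% of all 22961 tested probe sets. The 4 were Cdh18, Cdh12, Cdh7 and Pcdh11x. SAM gave the same counts, and at an unadjusted p under 0.05 in limma 29 genes were higher and 4 lower, beside 24.4% and 25.2% of all probe sets at that threshold. Other markers moved with age in interneurons too. Of 8 myelin genes 3 were higher in IN P10, with the summed levels given above, and of 9 pyramidal genes 4 were lower and 1 higher, with a summed log2 level of 13.16 to 13.48 in IN P0 and 12.62 to 12.71 in IN P10. Of 5 immature neuron genes 4 were lower (median -1.90). Of 7 oligodendrocyte precursor genes 2 were higher and 2 lower, and of 7 pan-interneuron genes 1 was higher and 2 lower. Among astrocyte markers and medial ganglionic eminence markers 1 gene each was higher, and 1 radial glia marker was lower. The part of these marker shifts in the interneuron age differences was not tested. In Pyr P12 against Pyr P0, 4 were higher and 3 lower (7.02% and 5.26%), against 5.68% and 3.48% of all. Higher were Pcdh11x, Pcdh20, Cdh7 and Cdh22, and lower were Pcdh18, Pcdh8 and Cdh4. Cdh7 and Pcdh11x were called higher with age in both populations. Astrocyte markers moved with age in pyramidal cells, 2 of 8 being higher in Pyr P12, with a summed log2 level of 10.91 to 10.99 in Pyr P0 and 13.03 to 13.08 in Pyr P12, while the astrocyte genes Aqp4 and Gja1 were above background on no array. Pan-interneuron markers were lower in Pyr P12 for 5 of 7 genes, with a median of -1.55 and a summed level of 11.69 to 12.22 in Pyr P0 and 10.54 to 10.69 in Pyr P12, and so were 2 of 4 Cajal-Retzius markers, summed at 11.34 to 11.46 and 10.21 to 10.25. Immature neuron genes were lower in Pyr P12 for 5 of 5 (median -2.54), radial glia genes for 2 of 6 and medial ganglionic eminence markers for 2 of 7. Of 9 pyramidal genes 2 were higher and 1 lower. The part of these marker shifts in the pyramidal age differences was not tested. The median log2 change over the 57 was 0.17 in interneurons and 0.21 in pyramidal cells, beside 0.00 and 0.06 over all probe sets.

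Between the populations, 5 of the 57 genes were higher and 2 lower in IN P10 against Pyr P12 (8.77% and 3.51%), against 2.65% and 2.91% of all probe sets. Higher were Cdh7, Pcdh18, Cdh9, Pcdh19 and Cdh13, and lower were Pcdh20 and Cdh6. In IN P0 against Pyr P0, 6 were higher and 3 lower (10.5% and 5.26%), against 1.9% and 1.74% of all. Cdh7, Cdh9, Pcdh18 and Pcdh19 were higher and Cdh6 was lower in interneurons at both ages. The median difference over the 57 was 0.06 in the older pair and 0.04 at P0, beside -0.07 and -0.00 over all probe sets.

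**Figure D1:**
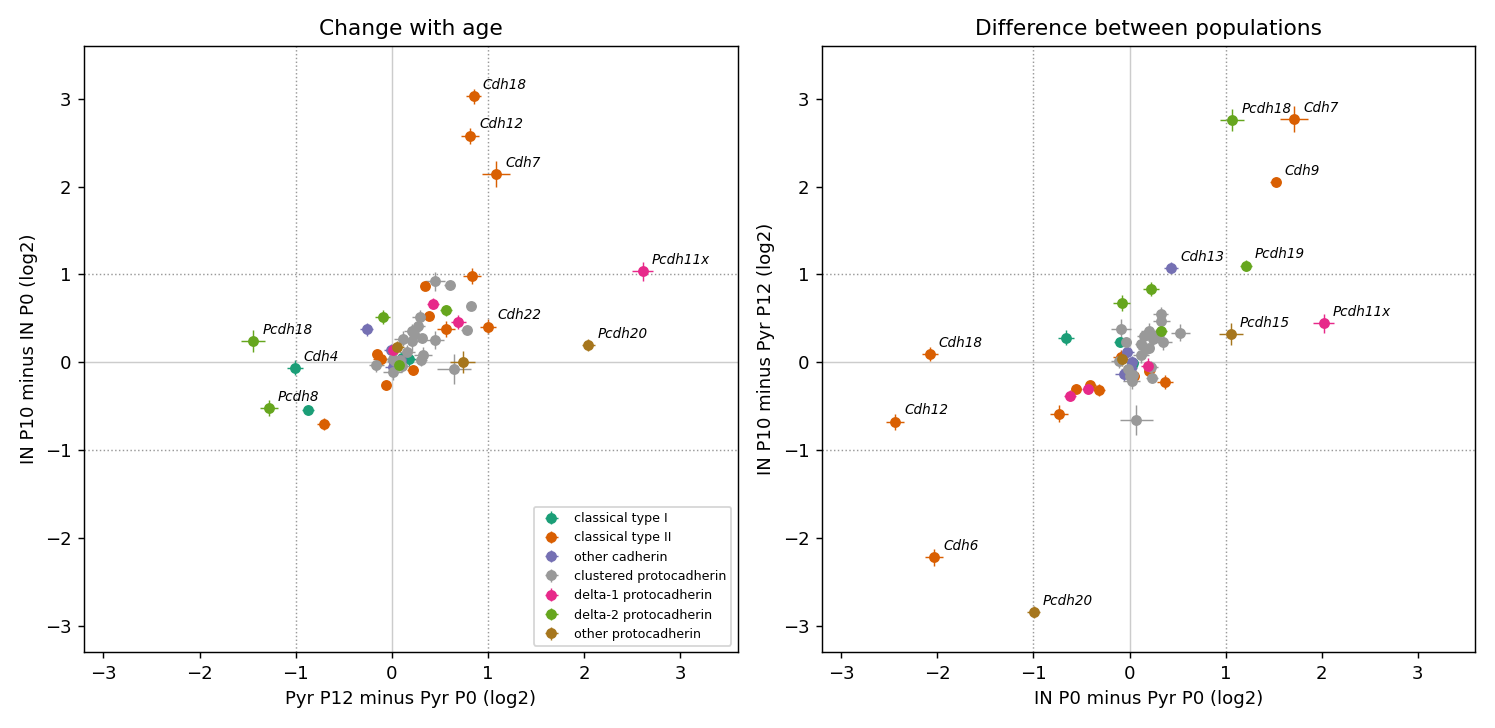
Each point is 1 of the 57 genes with its standard error from limma, coloured by subgroup, with the change in pyramidal cells (x) against that in interneurons (y) on the left and the population difference at P0 (x) against that in the older pair (y) on the right, all on the log2 scale with dotted lines at the 2-fold threshold. Named genes were called on at least 1 axis, and the clustered genes (grey) lie within 1 of 0 on all 4 axes.

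Cdh6 and Cdh9, which are neighbours, were higher in opposite populations. Cdh6 encodes a type II cadherin known from hippocampal and cortical circuits. Its values were 11.76, 11.82 and 11.86 in Pyr P0, 12.31, 12.38 and 12.43 in Pyr P12, 9.57, 9.99 and 9.77 in IN P0 and 10.29, 10.16 and 10.01 in IN P10, so that every pyramidal array lay above every interneuron array. It was lower in interneurons by -2.03 at P0 (SE 0.10, adjusted p = 2.32e-09) and by -2.22 in the older pair (SE 0.10, adjusted p = 5.02e-10), a 4.66-fold difference in the latter. Cdh9, which acts at hippocampal mossy fibre synapses, ran the other way. It read 9.39, 9.39 and 9.41 in Pyr P0, 9.79, 9.78 and 9.67 in Pyr P12, 10.91, 10.89 and 10.96 in IN P0 and 11.70, 11.85 and 11.83 in IN P10. The interneuron arrays were all above the pyramidal ones, by 1.52 at P0 (SE 0.06, adjusted p = 2.65e-10) and 2.05 in the older pair (SE 0.06, adjusted p = 6.21e-12). The differences of Cdh9 with age were 0.87 in interneurons and 0.35 in pyramidal cells, both short of the 2-fold threshold.

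Cdh12 and Cdh18, brain cadherins at the other end of the run, were lowest in IN P0 and had come up by IN P10. Cdh12 read 11.40, 11.17 and 11.07 in Pyr P0, 12.11, 11.95 and 12.05 in Pyr P12, 8.72, 8.93 and 8.68 in IN P0 and 11.25, 11.38 and 11.44 in IN P10. The IN P0 arrays stood below all others, with the nearest other array 2.15 higher. Cdh12 rose 5.98-fold in interneurons (log2 2.58, SE 0.09, adjusted p = 1.07e-10) and was lower in IN P0 against Pyr P0 by -2.44 (SE 0.09, adjusted p = 3.08e-10). In the older pair the difference was -0.68, under the 2-fold threshold.

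Cdh18 read 9.29, 9.27 and 9.24 in Pyr P0, 10.13, 10.10 and 10.13 in Pyr P12, 7.08, 7.34 and 7.15 in IN P0 and 10.41, 10.10 and 10.13 in IN P10. In IN P0 only 1 of the 3 arrays was above background and the mean, 7.19, lay under the mean background of those arrays, 7.23, so the sizes of differences from IN P0 are limited by the background. The older groups overlapped each other. Cdh18 rose in interneurons, with a measured log2 difference of 3.03 (SE 0.08, adjusted p = 1.13e-11), and was lower in IN P0 against Pyr P0 by -2.08 (SE 0.08, adjusted p = 5.21e-10). A second, dimmer Cdh18 probe set gave the same signs with smaller sizes, 1.39 with age in interneurons, which was called, and -0.85 at P0, which was not. Cdh10, between the 2 pairs, had group means from 11.10 in IN P0 to 11.65 in Pyr P0 and no call.

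Cdh7 rose in both populations and was higher in interneurons at both ages. This type II cadherin, which lies next to Cdh19 on chromosome 1, read 7.94, 7.73 and 8.03 in Pyr P0, 8.92, 9.02 and 9.02 in Pyr P12, 10.02, 9.22 and 9.60 in IN P0 and 11.66, 11.81 and 11.80 in IN P10. The 4 groups did not overlap, although the IN P0 arrays spread widely (SD 0.40). Its change with age was 2.14 in interneurons (SE 0.15, adjusted p = 3.96e-08) and 1.09 in pyramidal cells (SE 0.15, adjusted p = 2.34e-05), where a second quantile normalization gave 0.99 and no call. Interneurons exceeded pyramidal cells by 1.71 at P0 (SE 0.15, adjusted p = 7.98e-07) and 2.77 in the older pair (SE 0.15, adjusted p = 3.67e-09).

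**Figure D2:**
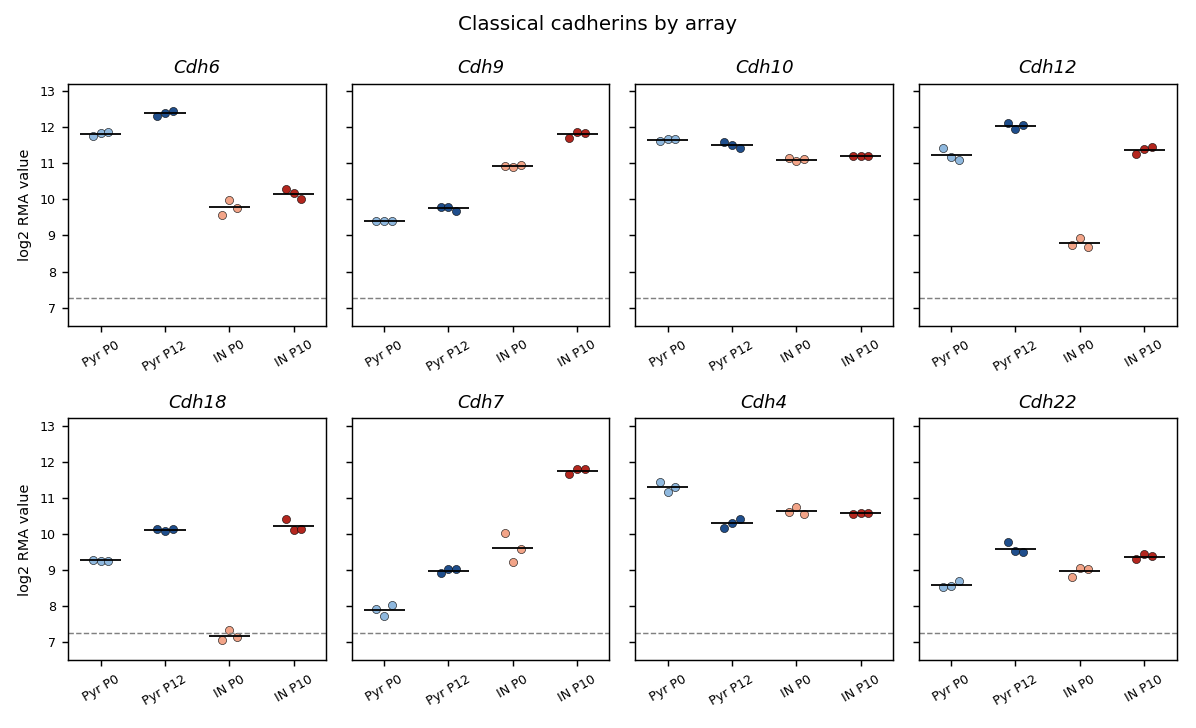
Log2 RMA value (y axis) of 8 classical cadherins on the 12 arrays, by group (x axis), with a point per array, a bar at the group mean and a dashed line at the mean background level. Cdh6 is higher in both pyramidal groups, Cdh7 and Cdh9 are higher in both interneuron groups, and Cdh12 and Cdh18 are low in IN P0 alone, with Cdh18 at 7.19 there.

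Of the remaining type II cadherins, Cdh22 held the single call. Cdh22 read 8.54, 8.55 and 8.69 in Pyr P0, 9.77, 9.52 and 9.50 in Pyr P12, 8.82, 9.05 and 9.04 in IN P0 and 9.30, 9.43 and 9.39 in IN P10. It rose in pyramidal cells by 1.00 (SE 0.08, adjusted p = 2.02e-07), at the threshold of fold, and the call was lost with each of 3 arrays left out (0.92 to 0.98) and with other scalings of the arrays (0.93 and 0.88). The difference of Cdh20 with age was 0.98 in interneurons and 0.83 in pyramidal cells, without a call. Cdh8 had group means from 10.89 in IN P0 to 11.68 in Pyr P12 and Cdh11 from 11.60 to 11.86. Cdh24 differed with age by -0.70 in interneurons and -0.71 in pyramidal cells, again without a call, and its second probe set by -0.12 in both.

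Among type I cadherins, Cdh4 (R-cadherin) was the only one called. Cdh4 read 11.45, 11.15 and 11.31 in Pyr P0, 10.16, 10.30 and 10.42 in Pyr P12, 10.60, 10.76 and 10.56 in IN P0 and 10.55, 10.58 and 10.59 in IN P10. The Pyr P0 arrays were above all others, and the change in pyramidal cells was -1.01 (SE 0.08, adjusted p = 2.16e-07), against -0.06 in interneurons. The pyramidal call was lost without Pyr P0 replicate A (-0.94) or Pyr P12 replicate A (-0.94). Cdh2 (N-cadherin), which carries synaptic and radial adhesion in the cortex, was at 12.83 ± 0.04 (SD, n = 3) in Pyr P0 against 11.95 ± 0.04 in Pyr P12, and at 12.73 ± 0.06 in IN P0 against 12.18 ± 0.10 in IN P10. These differences of -0.87 and -0.54 passed the adjusted p (2.58e-08 and 3.50e-06) but not the fold. The epithelial Cdh1 lay at 7.46 to 7.57 and the muscle cadherin Cdh15 at 7.96 to 8.13 in the group means.

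The other cadherins held 1 call. Cdh13 (T-cadherin), which is anchored by a lipid and has no cytoplasmic tail, read 11.61, 11.62 and 11.72 in Pyr P0, 11.34, 11.33 and 11.49 in Pyr P12, 12.01, 12.03 and 12.20 in IN P0 and 12.38, 12.44 and 12.54 in IN P10. IN P10 exceeded Pyr P12 by 1.07 (SE 0.07, adjusted p = 2.94e-08), with every IN P10 array above every Pyr P12 array. At P0 the difference was 0.43, under the fold. The remaining 4, Cdh16, Cdh17, Cdh23 and Cdh26, had group means of 6.13 to 7.56.

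The change with age itself differed between the populations for 6 genes. This was tested as the change in interneurons minus that in pyramidal cells, and 4 genes had a positive and 2 a negative difference, or 7.02% and 3.51%, against 2.24% and 2.63% of all probe sets. Cdh18 (2.17, SE 0.12, adjusted p = 1.70e-08), Cdh12 (1.77, SE 0.13, adjusted p = 2.90e-07) and Cdh7 (1.05, SE 0.21, adjusted p = 1.49e-03) gained more in interneurons. The Cdh7 call was lost without IN P0 replicate B (0.86) or Pyr P0 replicate C (0.99). The Cdh18 value rests on IN P0 levels at background. Its dimmer probe set, which was above background there, gave 0.99, just under the fold. The other 3 genes were protocadherins and are described with their subgroups.

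Of the 4 delta-1 protocadherins, whose conserved tail motifs bind phosphatase 1, Pcdh11x was called. Pcdh11x, an X-linked gene, read 8.52, 8.86 and 8.29 in Pyr P0, 11.19, 11.08 and 11.23 in Pyr P12, 10.49, 10.59 and 10.65 in IN P0 and 11.68, 11.55 and 11.60 in IN P10. The Pyr P0 arrays stood well below the rest. It rose 6.11-fold in pyramidal cells (log2 2.61, SE 0.11, adjusted p = 2.25e-10) and 2.05-fold in interneurons (log2 1.04, SE 0.11, adjusted p = 2.71e-06), and the latter call was lost without IN P0 replicate A (0.99). At P0 it was 4.06-fold higher in interneurons (log2 2.02, SE 0.11, adjusted p = 8.52e-09), while the older pair differed by 0.45. The age changes differed by -1.57 (SE 0.15, adjusted p = 4.29e-06). The differences with age in interneurons and pyramidal cells were 0.67 and 0.43 for Pcdh9, 0.46 and 0.69 for Pcdh1 and 0.14 and 0.01 for Pcdh7, none of them called.

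Delta-2 protocadherins, several of which recruit the actin-regulating WAVE complex through their tails, held 3 genes with calls among 5. Pcdh18 read 9.57, 9.33 and 9.26 in Pyr P0, 7.79, 8.19 and 7.85 in Pyr P12, 10.72, 10.29 and 10.35 in IN P0 and 10.61, 10.72 and 10.76 in IN P10. Every interneuron array was above every pyramidal array. Pcdh18 fell in pyramidal cells (-1.44, SE 0.12, adjusted p = 3.12e-07). Pan-interneuron markers were lower there too, and their part in this fall was not tested. Pcdh18 stood 6.74-fold higher in IN P10 against Pyr P12 (log2 2.75, SE 0.12, adjusted p = 8.36e-10). At P0 it was higher in interneurons by 1.07 (SE 0.12, adjusted p = 1.78e-05), a call lost without IN P0 replicate A (0.93). Its age changes differed by 1.68 (SE 0.18, adjusted p = 7.69e-06), with 0.24 in interneurons.

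Pcdh19, an X-linked gene whose human counterpart is mutated in an epilepsy of females, differed by population and was not called with age. It read 9.96, 10.16 and 10.07 in Pyr P0, 10.18, 10.12 and 10.12 in Pyr P12, 11.26, 11.16 and 11.39 in IN P0 and 11.22, 11.22 and 11.27 in IN P10. The interneuron arrays were higher by 1.21 at P0 (SE 0.07, adjusted p = 9.53e-09) and 1.10 in the older pair (SE 0.07, adjusted p = 1.45e-08), and the changes with age were -0.03 and 0.08. Pcdh8 (arcadlin), which is induced by synaptic activity and promotes the uptake of N-cadherin, read 9.91, 9.90 and 9.79 in Pyr P0, 8.54, 8.68 and 8.54 in Pyr P12, 9.55, 9.93 and 9.86 in IN P0 and 9.24, 9.17 and 9.36 in IN P10. The P12 arrays were the lowest. Pcdh8 fell in pyramidal cells (-1.28, SE 0.09, adjusted p = 3.90e-08), and its difference with age in interneurons, -0.52, was not called. The differences with age in interneurons and pyramidal cells were 0.59 and 0.57 for Pcdh10 and 0.51 and -0.10 for Pcdh17, all under the fold.

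Pcdh20 was the 1 protocadherin called lower in interneurons in the older pair. On chromosome 14 it lies between Pcdh17 and Pcdh9, with no protein-coding gene separating it from Pcdh9. Pcdh20 read 8.34, 8.21 and 8.40 in Pyr P0, 10.32, 10.35 and 10.42 in Pyr P12, 7.31, 7.39 and 7.25 in IN P0 and 7.63, 7.39 and 7.53 in IN P10. Interneuron arrays at both ages were close to background, and the Pyr P12 arrays stood apart. It rose 4.13-fold in pyramidal cells (log2 2.05, SE 0.07, adjusted p = 3.36e-11) and was lower in IN P10 against Pyr P12 by -2.85 (SE 0.07, adjusted p = 3.10e-12), a 7.19-fold difference. At P0 the difference of -0.997 (SE 0.07, adjusted p = 1.08e-07) fell just short of the fold, and without IN P0 replicate B (-1.03) or Pyr P0 replicate B (-1.05) it was called. The age changes differed by -1.85 (SE 0.10, adjusted p = 1.69e-08).

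Pcdh15, a tip-link protein of hair cells that is also known from oligodendrocyte precursors, gave a result that depended on the probe set. The brighter probe set read 8.83, 9.37 and 9.11 in Pyr P0, 9.75, 9.97 and 9.80 in Pyr P12, 9.91, 10.28 and 10.30 in IN P0 and 10.18, 10.12 and 10.17 in IN P10. The P0 groups did not overlap, and the difference was 1.06 (SE 0.13, adjusted p = 2.10e-05). It fell to between 0.92 and 1.00 without Pyr P0 replicate A, IN P0 replicate B or IN P0 replicate C, where the call was lost. The other Pcdh15 probe set gave -0.06 for the same difference (adjusted p = 0.838), with group means of 8.89 in Pyr P0 and 8.83 in IN P0, and the mean of both probe sets gave 0.50. Precursor markers were higher in IN P0 as given above, and their part in the Pcdh15 value was not tested.

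**Figure D3:**
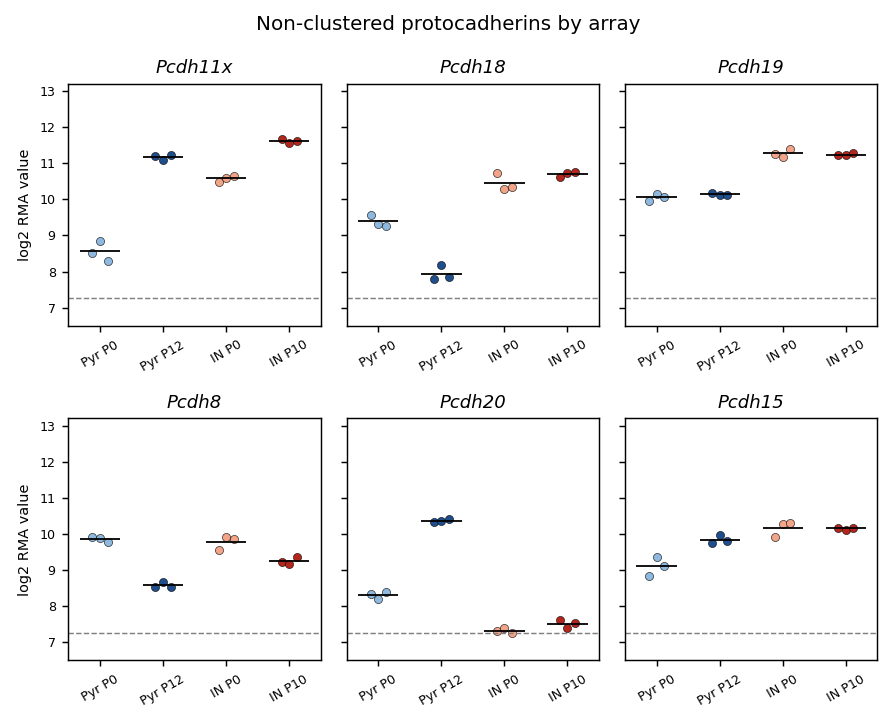
Log2 RMA value (y axis) of 6 non-clustered protocadherins on the 12 arrays, by group (x axis), with a point per array, a bar at the group mean and a dashed line at the mean background level. Pcdh20 reaches 10.36 in Pyr P12, Pcdh11x is lowest in Pyr P0 (8.55), and Pcdh18 falls to 7.94 in Pyr P12.

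The 22 beta protocadherins differed by less than 2-fold throughout. On all 12 arrays 21 of them were above background, and 0 were called in any of the 5 contrasts by limma or, in the 4 it was run on, by SAM. At an unadjusted p under 0.05 in limma, 12 had higher and 0 had lower values in IN P10 against IN P0, and 13 and 0 in Pyr P12 against Pyr P0, beside 24.4%, 25.2%, 36% and 23.2% of all probe sets. The same counts were 12 and 5 for the older pair (18.1% and 35% of all), 10 and 0 for P0 (15.2% and 15.4%), and 2 and 4 for the difference in age change (14.7% and 26.3%). The median difference with age was 0.25 in each population, and 18 of 22 values were above 0 in interneurons and 21 of 22 in pyramidal cells. The genes share a cluster and much of their sequence, so they are not independent, and the part of cross-hybridization between them was not tested.

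By the adjusted p alone, without the fold, 10 beta genes were higher and 0 lower in IN P10 against IN P0, and 12 and 0 in Pyr P12 against Pyr P0. Over all probe sets, 22.3% and 23.1% passed this rule in interneurons and 33% and 21.7% in pyramidal cells. Pcdhb3 had the largest of the 22 differences in interneurons (0.92, SE 0.11), with 8.12 in IN P0 and 9.04 in IN P10, followed by Pcdhb2 (0.88, SE 0.06). Without IN P10 replicate B, Pcdhb3 reached 1.00 and was called. In pyramidal cells the largest were those of Pcdhb12 (0.83, SE 0.05) and Pcdhb13 (0.78, SE 0.06). Between populations, 10 were higher and 3 lower in interneurons in the older pair and 8 and 0 at P0, against 16.1%, 30.4%, 11.1% and 11.3% of all probe sets. The differences ran from -0.66 (Pcdhb17) to 0.55 (Pcdhb6) in the older pair and from -0.11 (Pcdhb19) to 0.53 (Pcdhb10) at P0.

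**Figure D4:**
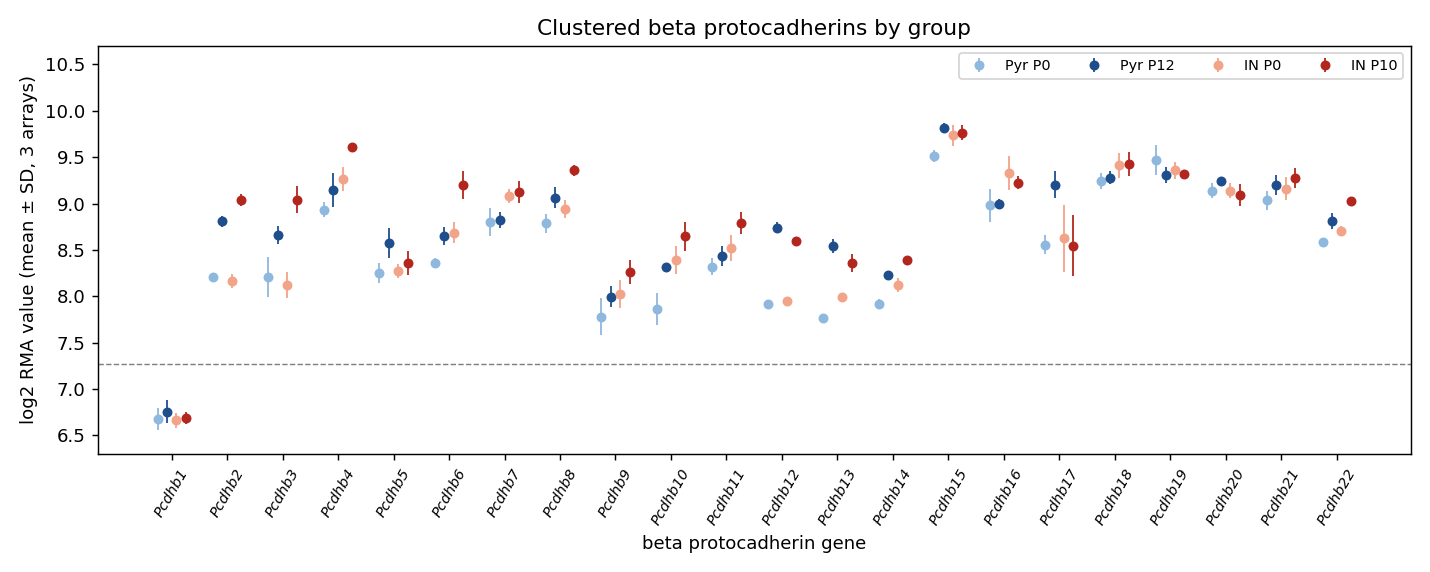
Mean log2 RMA value with SD over 3 arrays (y axis) of the 22 beta protocadherins (x axis), coloured by group, with a dashed line at the mean background level. Pcdhb2, Pcdhb3, Pcdhb12 and Pcdhb13 are among the genes whose older groups lie above the P0 groups, and Pcdhb1 lies below background in all groups.

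Regulators of the clustered promoters include CTCF, cohesin and DNA methyltransferases. Of 13 measured, 1 rose and 4 fell in interneurons with age, where 4.19% and 2.85% of all probe sets were called. The de novo methyltransferase gene Dnmt3a rose by 1.14 in interneurons and by 1.49 in pyramidal cells. Ctcf, which encodes the insulator protein that selects protocadherin promoters, fell in interneurons from 11.17 to 10.13 (-1.04, adjusted p = 3.84e-09). Lower there too were the cohesin genes Smc3 (-1.31) and Stag1 (-1.15) and the cohesin loader gene Nipbl (-1.06). In pyramidal cells Dnmt3a was the single call among the 13, where 5.68% and 3.48% of all probe sets were called. At an unadjusted p under 0.05 in limma, 1 was higher and 12 were lower with age in each population. Of all probe sets, 24.4% and 25.2% passed that threshold in interneurons and 36% and 23.2% in pyramidal cells. The median over the 13 was -0.69 in interneurons and -0.43 in pyramidal cells. The test of the difference in age change called 0 of 13 in limma (SAM was not run on it). At an unadjusted p under 0.05 in limma, 0 were positive and 8 negative, beside 14.7% and 26.3% of all probe sets.

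Calls among the partners that carry cadherin signals are given beside the shares of all probe sets called higher and lower. These shares were 4.19% and 2.85% with age in interneurons and 5.68% and 3.48% with age in pyramidal cells. They were 2.65% and 2.91% in the older pair, 1.9% and 1.74% at P0 and 2.24% and 2.63% for the age difference. Among 11 catenins and direct partners, Afdn (afadin) fell in interneurons (-1.03), Vcl (vinculin) rose in pyramidal cells (1.02) and exceeded its Pyr P0 level in IN P0 (1.22), where Jup (plakoglobin) was lower (-1.13). Of 11 genes of the WAVE complex and protocadherin signalling, Ptk2b, which encodes the kinase PYK2 that clustered protocadherins inhibit, rose in pyramidal cells (1.31) and was lower in interneurons at P0 (-2.13) and in the older pair (-3.10). Wasf1, a WAVE subunit gene, was lower in interneurons in the older pair (-1.06), and its age change differed by -1.16. Nectin3, an adhesion partner of afadin, was lower in interneurons at P0 (-1.44) and in the older pair (-1.42), and the other 3 nectin genes were not called. Of 6 genes for the cleavage of cadherins, 0 were called by limma or SAM. With age in either population, 2 were higher and 2 lower at an unadjusted p under 0.05 in limma. Of all probe sets, 24.4% and 25.2% passed that threshold in interneurons and 36% and 23.2% in pyramidal cells.

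More distant members of the superfamily, 21 genes measured, included the atypical cadherins of planar polarity and the synaptic calsyntenins. With age, 1 of the 21 was called higher and 1 lower in interneurons (4.19% and 2.85% of all probe sets). In pyramidal cells 2 were higher and 2 lower (5.68% and 3.48%). Against pyramidal cells, 0 were higher and 1 lower in interneurons in the older pair (2.65% and 2.91%). The same counts held at P0 (1.9% and 1.74%), and the age difference was called positive for 1 and negative for 0 (2.24% and 2.63%). Dchs1 fell in interneurons (-1.22) and pyramidal cells (-2.06), and Fat4, which encodes its partner, fell in pyramidal cells (-1.58). The calsyntenin genes Clstn1 (1.07) and Clstn3 (1.64) rose in pyramidal cells. Clstn2 followed the course of Cdh12 and Cdh18 in that it was low in IN P0, with a mean of 10.85 there against 12.20 to 12.59 in the other groups. It rose in interneurons by 1.35 (adjusted p = 1.09e-07). Fjx1, the relative of a fly gene of the same polarity pathway, was lower in interneurons in the older pair (-1.07).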

How the data were processed

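Total RNA of sorted cells was amplified, labelled and hybridized to Affymetrix mouse gene arrays, 3 per group. The authors background-corrected, quantile-normalized and summarized the signals with RMA, and the deposited values are log2 signals per probe set. Software and annotation versions and a genome build are not given in the sources used here. The table held 28192 probe sets, and tests covered the 22961 that the platform annotation pairs with a symbol. Probe sets with several symbols were not named. RefSeq (GRCm38.p6) gave gene order and promoter windows, which were found for 22 of the 57 genes; windows on chromosome 18 are not reported here.

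All 12 arrays were fitted in limma 3.58.1 (R 4.3.3) with 4 group means and no block, leaving 8 residual degrees of freedom, and p-values were adjusted by Benjamini-Hochberg over the 22961 probe sets. The study's methods name SAM, which was run as an alternative. An exact permutation test of 3 arrays against 3 cannot give a 2-sided p under 0.1. The number of arrays limits the precision. The limma and SAM code was tested on simulated data. Replicate letters were not taken as pairs, and the labels do not say whether arrays with the same letter were prepared together. The alternatives were SAM, a fit of 2 groups alone, eBayes with trend and robust options, a block for the letter, leaving out dim probe sets, testing all probe sets, the mean of a gene's probe sets, centring, a second quantile normalization, other thresholds and leaving out each array. Left-out arrays and other scalings were read for the 57 genes only. Calls of the other listed genes close to 2-fold, such as Afdn, Vcl and Ctcf, had no such check. The members, lists and alternatives were chosen with earlier results of these data known. Genes called in at least 1 contrast, classical and delta members and called list genes were named; other genes, the highest or lowest of a subgroup or of a count of 5 or fewer, were named after their values were seen. Plots used Python 3.11.15 with matplotlib 3.10.9.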

Additional observations from a re-analysis of the deposited data

Results flagged for a closer look

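The change with age differed between interneurons and pyramidal cells, by limma's test of the difference itself, for 6 of the 57 genes. The difference was 2.17 for Cdh18 (3.03 in interneurons and 0.85 in pyramidal cells), 1.77 for Cdh12 (2.58 and 0.82), 1.68 for Pcdh18 (0.24 and -1.44) and 1.05 for Cdh7 (2.14 and 1.09). It was -1.85 for Pcdh20 (0.20 in interneurons and 2.05 in pyramidal cells) and -1.57 for Pcdh11x (1.04 and 2.61). The probe set used for Cdh18 was at background in IN P0, which limits its value, while the second Cdh18 probe set was above background there. The older groups differ in age by the labels, P10 against P12, and age and population cannot be told apart there.

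A probe set listed under 14 alpha protocadherin symbols was outside the comparisons and had signal above background on all 12 arrays, with a mean of 9.90 on the log2 scale.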

How the results depend on the processing

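The 27 calls in the 4 pairwise contrasts and the 6 in the age difference make 33 pairs of gene and contrast. Of these, 26 were called under every alternative other than the dimmer probe sets below. Of 651 alternative values, the dimmer probe sets included, 632 kept direction and call, 18 kept direction only and 1 reversed. A fold of 1.5 or no fold threshold could not lose a call. Genes with a single probe set repeated their main value under the dimmer setting. Part of the 632 was thus fixed in advance. The call was lost under at least 1 alternative other than the dimmer probe sets for 6 genes (Cdh4, Cdh7, Cdh22, Pcdh11x, Pcdh15 and Pcdh18). After a second quantile normalization, 2 genes in place of 4 rose in pyramidal cells, with Cdh7 at 0.99 and Cdh22 at 0.88. With a fold of 1.5, the counts higher and lower became 11 and 1 in IN P10 against IN P0, 13 and 5 in Pyr P12 against Pyr P0, and 8 and 5 in the age difference. Between populations, 4 were then lower in interneurons in the older pair and 7 at P0. Pcdh17 (0.83) and Pcdh8 (0.67) joined the higher genes in the older pair, and no gene joined them at P0. Without a fold threshold the counts were 25 and 4, 27 and 7, 21 and 14 (IN P10 against Pyr P12), 18 and 11 (IN P0 against Pyr P0) and 13 and 8 (age difference). The reversed value was Pcdh15 in IN P0 against Pyr P0, -0.062 by its dimmer probe set, an alternative chosen after seeing the data, as was the same for Cdh18, whose -0.85 there and 0.99 in the age difference lost their calls. The cause was not tested. With 1 array left out, counts higher and lower ranged from 3 to 6 and 0 to 0 in IN P10 against IN P0, 3 to 4 and 2 to 3 in Pyr P12 against Pyr P0, 5 to 5 and 2 to 2 in IN P10 against Pyr P12, 5 to 6 and 3 to 4 in IN P0 against Pyr P0, and 3 to 5 and 2 to 2 in the age difference. Cdh20 was gained in interneurons without IN P0 replicate B (1.02), IN P0 replicate C (1.00) or IN P10 replicate B (1.07). Cdh4 was gained in the age difference (1.01 to 1.02) without IN P0 replicate B, Pyr P0 replicate B or Pyr P12 replicate C. Samples with the same letter deviated together with r from -0.18 to 0.19, over 0.1 in 6 of 18 pairs, so the letters were not taken as pairs, and with the letter as a replicate block the counts stayed at 4 and 0, 4 and 3, 5 and 2, 6 and 3, and 4 and 2 in the order above. Signals near background, as for the probe set used for Cdh18 in IN P0 and for Pcdh20 in interneurons, limit how far down a level can be read.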

Other observations

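The alpha cluster was represented by that single shared probe set, which names no one isoform. Its values were 9.61, 9.68 and 9.71 in Pyr P0, 10.03, 10.08 and 10.12 in Pyr P12, 9.70, 9.62 and 9.66 in IN P0 and 10.10, 10.20 and 10.28 in IN P10. The older arrays were above the P0 arrays in both populations, by 0.53 in interneurons (SE 0.06, adjusted p = 2.91e-06) and 0.41 in pyramidal cells (SE 0.06, adjusted p = 3.50e-05), under the fold. The populations differed by 0.12 in the older pair (adjusted p = 0.107) and -0.01 at P0 (adjusted p = 0.949).

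Another 3 probe sets were listed under Cdh11 and 2 other symbols and are given without attribution. Their differences with age were -0.65, -0.79 and -0.43 in interneurons and -1.42, -0.62 and -0.61 in pyramidal cells, where the first passed both thresholds (adjusted p = 2.28e-08), whereas the probe set of Cdh11 alone gave -0.26 and -0.06.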
